A study of Mus musculus with 22 samples.

Results

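The genes described here are 9 writers, erasers and readers of DNA methylation, a list made with earlier results of these data known. The list holds the DNA methyltransferases *Dnmt1* and *Dnmt3a*, TET dioxygenases *Tet1*, *Tet2* and *Tet3*, and methyl-CpG binding domain genes *Mbd1*, *Mbd2*, *Mbd3* and *Mbd5*. They are 9 of 23453 gene symbols, and all 9 were among the 12719 symbols with a read in at least 5 cells. RNA was sequenced from 22 single astrocytes of primary cortical cultures made from C57BL/6 mouse pups of postnatal day 0 to 1. Every cell, NR cells included, had been exposed to ethanol (EtOH) while its calcium signal was imaged, and it was then picked with a micropipette. The cells were 6 S-type (slow rise and slow decay of calcium), 6 T-type (transient rise), 5 M-type (a mixture of patterns) and 5 NR astrocytes, whose calcium signal stayed below the response threshold, and no cell was left without EtOH. The cultures had been shaken and treated with cytosine arabinoside, an inhibitor of DNA synthesis, before they were plated on coverslips, so the cells were a purified culture and not astrocytes of the intact brain. The labels do not tie a cell to an animal or a culture. Each response type was therefore treated as 1 sample, no test between types was run, and the spread between the cells of a type is shown by their values and by leaving out each cell in turn.

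DNMT1 copies methylation of CpG, a cytosine followed by a guanine, onto the new DNA strand at replication, and DNMT3A sets methylation at new sites. The TET enzymes oxidize the methyl group, which starts its removal. Proteins with a methyl-CpG binding domain, such as MBD2, read the mark and recruit silencing complexes. The *Mbd* genes of the list are all called readers here, although MBD3 binds methylated CpG poorly and MBD5 lacks affinity for it. In neural precursors, methylation of astrocyte genes such as *Gfap* holds back their expression until astrocytes are made, and loss of *Dnmt1* brings astrocyte differentiation forward.

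Because CpG is the site at which this methylation is written, erased and read, the CpG content of the promoters of these genes is shown first. RefSeq promoters (GRCm38.p6, 250 bases before to 50 bases after a transcription start) were found for 7 of the 9 genes, with 12 starts in all, and none was found for *Mbd1* and *Mbd2*. The promoters of the 5 genes that differ most steadily between types later in the text are printed 5′ to 3′ on the strand of the gene, with every CpG in capitals.
Dnmt1, chr9:20952574-20952873, minus strand: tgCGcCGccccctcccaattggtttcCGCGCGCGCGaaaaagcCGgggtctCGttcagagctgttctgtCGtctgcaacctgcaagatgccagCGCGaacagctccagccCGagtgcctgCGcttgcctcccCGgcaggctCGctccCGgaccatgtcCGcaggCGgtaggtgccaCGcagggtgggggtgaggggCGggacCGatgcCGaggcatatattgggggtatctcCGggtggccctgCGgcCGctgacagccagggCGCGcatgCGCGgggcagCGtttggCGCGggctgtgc
Tet2, chr3:133544341-133544640, minus strand: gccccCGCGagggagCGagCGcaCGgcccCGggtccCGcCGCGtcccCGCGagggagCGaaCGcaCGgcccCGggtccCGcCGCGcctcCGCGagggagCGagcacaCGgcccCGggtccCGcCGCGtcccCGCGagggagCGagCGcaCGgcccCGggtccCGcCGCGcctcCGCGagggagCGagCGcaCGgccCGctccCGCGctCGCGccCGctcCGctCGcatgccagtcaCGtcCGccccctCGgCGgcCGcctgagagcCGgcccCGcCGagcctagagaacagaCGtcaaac
Tet3, chr6:83441629-83441928, minus strand: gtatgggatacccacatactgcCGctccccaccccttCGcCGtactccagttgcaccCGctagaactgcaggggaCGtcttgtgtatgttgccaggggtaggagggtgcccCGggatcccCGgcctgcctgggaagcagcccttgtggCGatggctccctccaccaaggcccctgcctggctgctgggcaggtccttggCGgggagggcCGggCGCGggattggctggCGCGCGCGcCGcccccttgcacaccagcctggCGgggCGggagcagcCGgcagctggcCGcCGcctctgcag
Mbd3, chr10:80399482-80399781, minus strand: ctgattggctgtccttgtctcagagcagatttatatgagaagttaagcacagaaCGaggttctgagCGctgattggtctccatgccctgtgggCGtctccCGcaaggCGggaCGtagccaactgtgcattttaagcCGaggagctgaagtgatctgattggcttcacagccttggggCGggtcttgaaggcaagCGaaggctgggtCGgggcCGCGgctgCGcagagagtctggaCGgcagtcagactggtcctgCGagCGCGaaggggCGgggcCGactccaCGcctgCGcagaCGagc
Mbd5, chr2:48949258-48949557, plus strand: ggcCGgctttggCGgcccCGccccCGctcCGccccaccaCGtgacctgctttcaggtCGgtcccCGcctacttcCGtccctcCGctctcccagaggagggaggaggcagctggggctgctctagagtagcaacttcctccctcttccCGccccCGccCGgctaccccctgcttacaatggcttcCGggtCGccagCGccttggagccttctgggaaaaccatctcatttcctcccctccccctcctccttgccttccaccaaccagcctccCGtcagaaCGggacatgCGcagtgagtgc
The *Tet2* promoter held 57 CpG in 300 bases, more than 99.8% of the 32851 promoters of the same length, whose median was 7 CpG. This *Dnmt1* start held 33 CpG, and the other 2 *Dnmt1* starts held 12 and 2. *Tet3* and *Mbd3* held 22 each and *Mbd5* 19, with 4 at its other start. The *Dnmt3a* starts, not printed, held 47, 46 and 18, and *Tet1* held 17. Of these 12 starts, only the printed *Dnmt1* start matched TTTCCCGC or TTTGGCGC on either strand, the letters of a site for E2F factors, which drive S phase genes. Such a match was present in 514 of the 32851 promoters (1.56%), and it describes the letters of this window and not a bound site.

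The libraries differed in depth. Counted reads per cell ran from 15057892 to 19930655 for NR, from 19030121 to 22131076 for M-type, from 12229280 to 16254761 for S-type and from 2937786 to 19279519 for T-type. The number of symbols with a read ran from 6319 to 10614 in T-type (median 9203.5) and from 9272 to 13070 in the other types. Counts were divided by size factors (medians of ratios), and the result is called the normalized count. T-type cells 2 and 3 had the smallest size factors, 0.276 and 0.183, against 0.548 to 2.31 in the other 20 cells, so that a read in these 2 cells weighs more in a type mean. T-type cell 2 had 12564138 reads but only 6319 symbols with a read. S-type cell 3 and M-type cell 3 each had reads of both *Xist* and Y-linked genes above 10 CPM, the count scaled to a common total. Of 10 astrocyte markers, 9 or 10 had a read in every cell, and their summed level was 1051 to 8972 CPM. In 6 of the 22 cells the summed level of 8 fibroblast and mural cell markers was higher than that, in 3 T-type cells and in 1 of each other type, and it ran from 31.7 to 7410 CPM. In S-type cell 2 the 8 neuron markers, at 2048 CPM, also exceeded the astrocyte markers, at 1360. Single genes led both lists over the 22 cells: *Acta2* had 539975 reads and the next, *Col1a2*, 27206, while *Stmn2* had 78888 and *Tubb3* 4308. *Col1a1*, *Col3a1*, *Dcn* and *Rgs5* had no read in T-type, nor *Rbfox3*, *Dcx* and *Nefl* in S-type. The oligodendrocyte lineage markers reached 3329 CPM, in T-type cell 3, and the endothelial markers 200.005 CPM, with *Sox10*, *Cdh5*, *Cldn5* and *Rgs5* unread in all cells. The astrocyte markers were thus read throughout, but not in every cell as the leading list, and the part of the other lists in the results was not tested. The summed level of 10 microglia markers was 0.792 to 50.6 CPM in NR cells, 0 to 7.33 in T-type, 0.0525 to 1.02 in M-type and 0 to 0.308 in S-type. In S-type, 6 of the 10, *P2ry12*, *Csf1r*, *C1qa*, *C1qc*, *Aif1* and *Ptprc*, had no read. All 8 tested markers were below NR in S-type, T-type and M-type. In T-type all 8 were more than 2-fold above S-type, with unread markers set to 3 reads over the type. Of all tested genes, 58.2% differed more than 2-fold, either way, between T-type and S-type. The part of the microglia markers in the comparisons with NR and in T-type versus S-type was not tested.

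The 9 genes together took 0.00252% to 0.0449% of the reads of a cell. By mean normalized count 5 of them lay above the median of the 12719 tested genes, from *Mbd2*, above 75.8% of these genes, to *Tet2*, above 51.0%, and *Tet1* was the lowest, above 20.1%. *Mbd3* had a read in all 22 cells, and *Dnmt1*, *Dnmt3a*, *Mbd1* and *Mbd2* in 21. The TET genes and *Mbd5* were missed more often, with *Tet2* read in 19 cells, *Tet3* in 16, *Mbd5* in 15 and *Tet1* in 14. Cells thinned at random to the 2937786 reads of the smallest library still showed *Mbd3* in 22 cells, and *Tet2* in 17, *Tet3* in 15, *Mbd5* in 13 and *Tet1* in 11. Per kilobase of exon (GENCODE vM21, all exons of a gene merged), the mean normalized count was highest for *Mbd2* at 282 and *Mbd3* at 110.1, then 52.0 for *Mbd1*, 41.5 for *Dnmt1* and 38.2 for *Dnmt3a*. The eraser *Tet2* followed at 15.6, and *Tet3* at 7.75, *Mbd5* at 6.45 and *Tet1* at 2.46 were the lowest. Coverage along the transcripts was not measured here, and values per length depend on it.

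**Figure D1:**
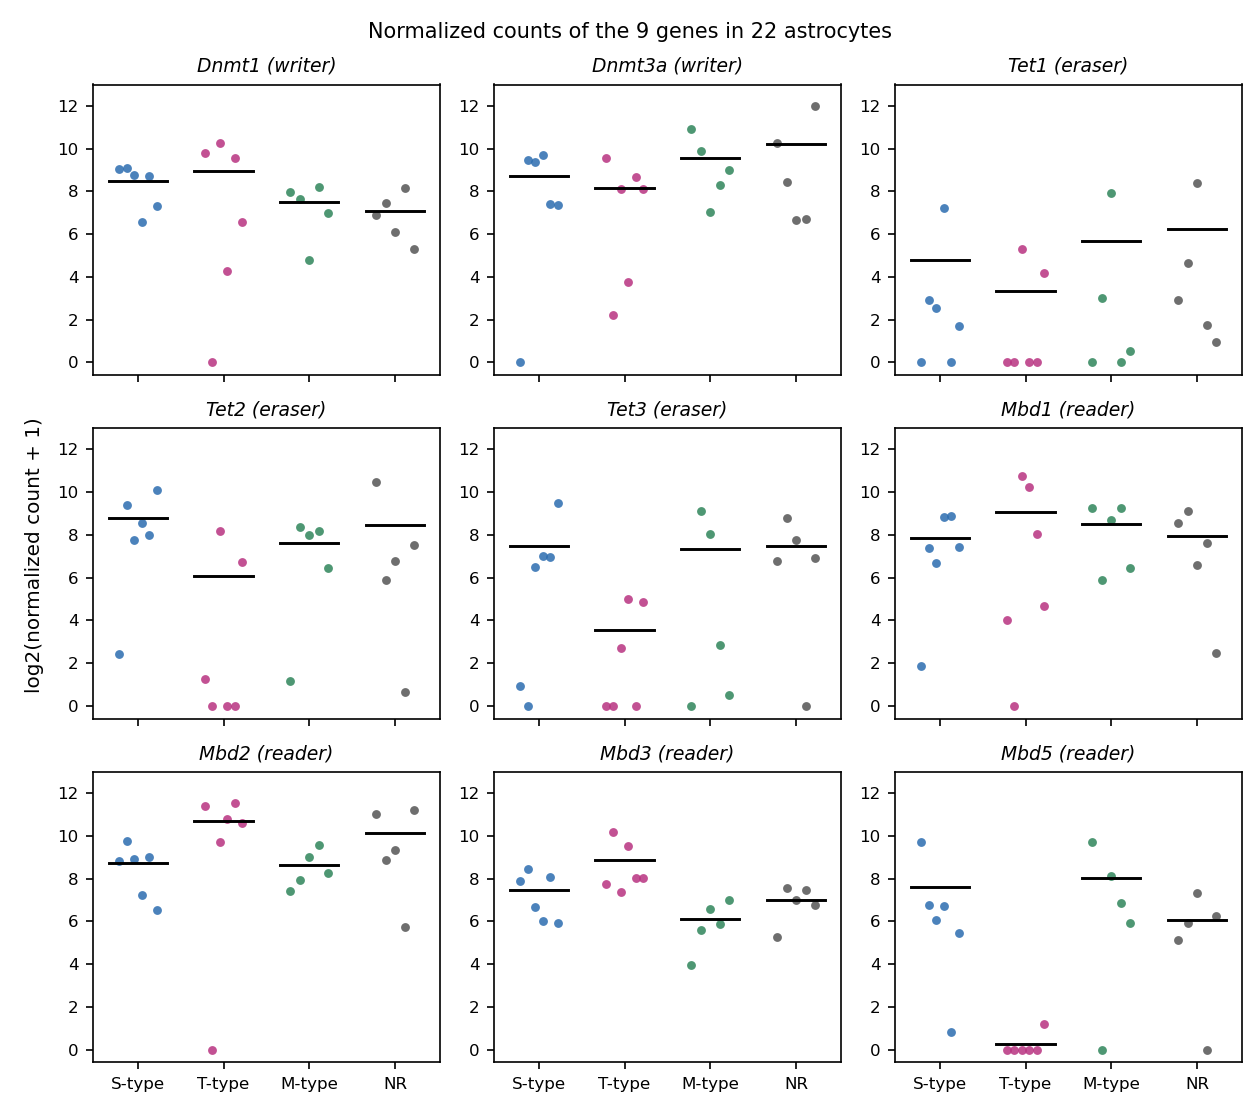
Normalized counts of the 9 genes in each of the 22 astrocytes (y axis, log2 of the normalized count plus 1; x axis, response type), with each point 1 cell and each black bar the level of the type (mean over its cells). The 6 T-type cells lie at or near 0 for *Mbd5*, and so do 4 of 6 for *Tet2* and 3 of 6 for *Tet3*.

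For each gene, the mean normalized count over the cells of a type is called its level there, and a comparison is the log2 ratio of 2 such levels. The 95% interval of a ratio comes from the exact (Clopper-Pearson) split of the reads between the 2 types. It covers counting error only, because reads amplified from the same molecule cannot be recognized here, and the range obtained by leaving out each cell in turn is wider for most ratios.

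*Dnmt1* (chr9:20907209-20959888, minus strand), the maintenance methyltransferase, was higher in T-type and S-type than in NR. Its normalized counts were 531, 541, 429, 93.7, 424 and 157 in the S-type cells. The T-type cells had 874, 0, 1244, 18.2, 747 and 95.4, so 3 of them were the highest of all 22 cells and 1 had no read. The M-type cells had 248, 201, 26.7, 293 and 125, and the NR cells 119, 175.3, 67.6, 281 and 38.0. Every type overlapped with every other. The level was 496 in T-type, 363 in S-type, 179 in M-type and 136 in NR. S-type over NR gave a log2 ratio of 1.41 (95% interval 1.31 to 1.52), which lay between 1.17 and 1.86 when each cell was left out. T-type over NR gave 1.87 (1.76 to 1.97), and 1.35 to 2.31 with cells left out. However, the mean of log2(normalized count + 1) put T-type over NR at -0.04, because the T-type cell without a read and the cell at 18.2 weigh more on that scale. T-type and S-type, the neighbours at the top of the order, differed by 0.45, without T-type cell 3 by -0.06, and with the mean of logs by -1.50. M-type over NR gave 0.39 (0.28 to 0.50).

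Since DNMT1 acts at the replication fork, *Dnmt1* was set beside 34 S phase genes. The summed normalized count of these genes ran from 4942 to 12318 in NR, from 3963 to 34975 in M-type, from 6753 to 175343 in S-type and from 11258 to 119781 in T-type. All 34 were above NR in S-type, 31 of them past 2-fold, where 47.5% of the tested genes were, and with a median log2 ratio of 4.10, against 0.03 over all tested genes. In T-type 28 of the 34 were above NR, with a median of 1.77, and in M-type 25, with a median of 1.02. The S-type cells with the highest S phase sums, cells 1 and 2, also had the highest *Dnmt1* of that type, while T-type cell 3 had the highest *Dnmt1* of all with an S phase sum of 11258. Spearman's rho between *Dnmt1* and the S phase sum over the 22 cells was 0.37. The part of these genes in the *Dnmt1* difference was not tested. The genes whose normalized counts ranked most like *Dnmt1* over the 22 cells, of 6588 compared, were *Rrm1* (rho 0.76), a subunit of ribonucleotide reductase, *1700021K19Rik* (0.75) and *Tubg1* (0.74), a gamma-tubulin. These values describe 22 cells that share types and depths.

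**Figure D2:**
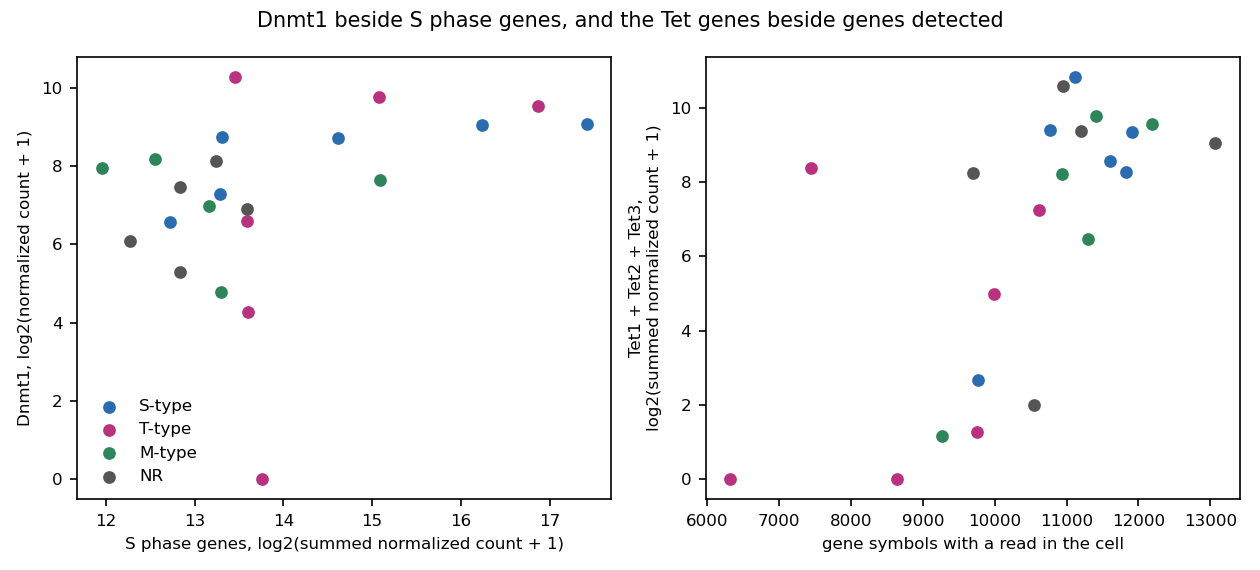
Left, *Dnmt1* against the summed S phase genes in each cell, both as log2 of the normalized count plus 1; right, the sum of the 3 TET genes (log2 of the normalized count plus 1) against the number of gene symbols with a read. Colours give the response type, and the 2 T-type cells at 0 on the right had no TET read.

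*Dnmt3a* (chr12:3806007-3914443, plus strand), the de novo methyltransferase, had the reverse order of types to *Dnmt1*, with levels of 1184 in NR, 763 in M-type, 424 in S-type and 286 in T-type. The NR level rested on a single cell: the NR cells had 1237, 341, 99.2, 105 and 4138, and NR cell 5 held 69.9% of their sum. The M-type cells had 1912, 944, 129, 313 and 515. The S-type cells had 0, 698, 670.0, 841, 171.8 and 165.5, and the T-type cells 746, 3.63, 278, 12.8, 402 and 273. The ranges of all 4 types overlapped. T-type over NR gave -2.05 (-2.13 to -1.97), and -0.64 without NR cell 5. S-type over NR gave -1.48, -0.07 without NR cell 5, and 0.30 when medians over cells replaced means. M-type over NR gave -0.64, and 0.77 without the same cell. The gene most like it over the cells was the chaperone gene *Hsph1* (rho 0.83), followed by *Dclk1* and *Cds2* (both 0.74). Of the other genes of this family, *Dnmt3b*, the second de novo enzyme, had 130 reads in 3 cells, all but a few of them in T-type cell 6, without which T-type over S-type went from 5.72 to 0.11, and *Dnmt3l*, the germ cell cofactor, had no read.

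The TET genes encode the erasers, and the level of each was lowest in T-type cells, although for *Tet1* this rested on single cells. Summed over the 3 genes, the level was 643 in S-type, 611 in NR, 407 in M-type and 86.3 in T-type. In T-type, 2 of 6 cells had no TET read at all and 3 of 6 had fewer than 10. In S-type, M-type and NR, no cell was without a TET read, and 1 cell in each had fewer than 10.

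*Tet2* (chr3:133463679-133545139, minus strand) had 673, 216, 380.2, 253 and 1104 in 5 of the S-type cells and 4.44 in S-type cell 1. The T-type cells had 1.41, 0, 289, 0, 0 and 107. The M-type cells had 1.25, 328, 258, 293 and 87.3, and the NR cells 1439, 58.4, 110.0, 0.598 and 181.7. Thus 4 of 6 T-type cells lay below 2 normalized counts, against 1 of 5 M-type, 1 of 5 NR and none of 6 S-type cells, and the ranges overlapped. T-type over S-type gave -2.73 (-2.93 to -2.53) from 221 and 3224 reads, and between -4.34 and -2.20 with each cell left out. T-type over NR gave -2.43 (-2.64 to -2.24), but -0.40 without NR cell 1, which held 80.4% of the NR sum. S-type over NR gave 0.29 and M-type over NR -0.89, and these reached 2.32 and 1.14 without that cell.

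*Tet3* (chr6:83362373-83459084, minus strand), the TET enzyme of the oocyte and of neurons, had 0.888, 0, 88.9, 129.6, 126 and 719 in the S-type cells and 0, 0, 5.45, 31.0, 0 and 28.2 in the T-type cells. It had 0, 553, 259.7, 6.23 and 0.432 in the M-type cells and 108, 449.8, 219, 0 and 119.6 in the NR cells. The highest T-type cell was at 31.0, whereas 4 of 6 S-type, 2 of 5 M-type and 4 of 5 NR cells exceeded 80. T-type over S-type gave -4.04 (-4.43 to -3.67), and between -4.72 and -2.68 with each cell left out. T-type over NR gave -4.06 (-4.45 to -3.69), and between -4.74 and -3.37. S-type, M-type and NR had levels of 177, 163.9 and 179. S-type over NR was -0.01, with cells left out -1.37 to 0.67. M-type over NR was -0.13, with cells left out -1.43 to 0.56, but -4.26 with medians over cells and -1.95 with the mean of logs, since 3 of the 5 M-type cells lay at or below 6.23.

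*Tet1* (chr10:62804570-62908996, minus strand), best known from embryonic stem cells, was close to the detection limit. In each type a single cell held a majority of the level: S-type cell 4 at 147, T-type cell 3 at 38.2, M-type cell 3 at 242 and NR cell 3 at 335. The other cells lay between 0 and 24.4. Its level was 73.9 in NR, 49.9 in M-type, 26.8 in S-type and 9.25 in T-type. T-type over NR was -3.00, but 0.10 without NR cell 3, and T-type over S-type was -1.54, but 1.76 without S-type cell 4, so the order of the types depended on single cells.

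The 3 TET genes went together over the 22 cells more than the other members did. Their pairs had Spearman's rho of 0.51 (*Tet1* and *Tet2*), 0.55 (*Tet1* and *Tet3*) and 0.55 (*Tet2* and *Tet3*), where the 36 pairs among the 9 genes ran from -0.53 to 0.55 with a median of 0.06. They also went with the number of symbols read in a cell, with rho of 0.53 for *Tet1*, 0.49 for *Tet2* and 0.72 for *Tet3*, and that number was lower in T-type. Its part in the TET difference was not tested. Thinning all cells to the smallest library left 86 *Tet2* reads in T-type against 651 in S-type and 418 in NR, and 16 *Tet3* reads against 268 and 230. Without T-type cells 2 and 3, T-type over S-type was -4.02 for *Tet2* and -3.58 for *Tet3*.

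**Figure D3:**
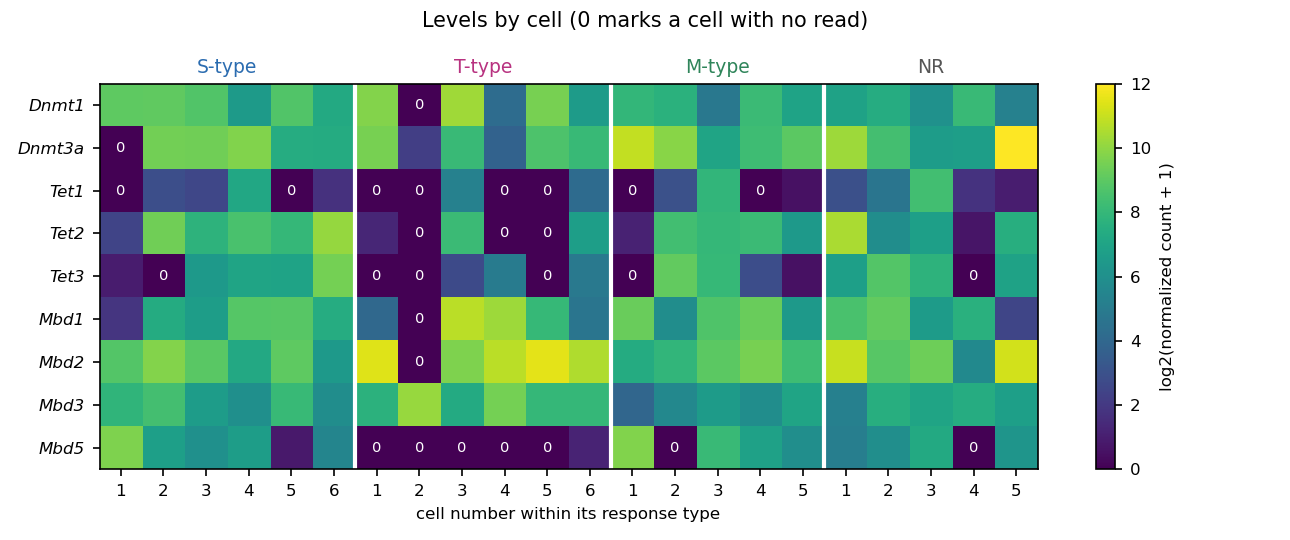
Levels of the 9 genes (rows) in the 22 cells (columns, numbered within each response type), coloured by log2 of the normalized count plus 1, with 0 written where a cell had no read. T-type holds 5 of the 7 cells without a read of *Mbd5* and 3 of the 3 without a read of *Tet2*.

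The readers split in T-type cells: *Mbd2* and *Mbd3* were high and *Mbd5* was all but unread. *Mbd2*, on chromosome 18, encodes the protein that binds methylated CpG and recruits the NuRD deacetylase complex. The S-type cells had 450.1, 873, 486, 152, 522 and 90.5. The T-type cells had 2726, 0, 835, 1749, 2959.7 and 1544, so 4 of them exceeded every S-type and M-type cell, and the cell without a read was T-type cell 2. The M-type cells had 168, 239, 513, 759 and 308, and the NR cells 2079, 471, 647, 51.4 and 2327. The levels were 1636 in T-type, 1115 in NR, 429 in S-type and 398 in M-type. T-type over S-type gave 1.93 (1.87 to 1.99), with 1.68 to 2.27 when each cell was left out, and 2.39 without T-type cells 2 and 3. T-type over NR gave 0.55 (0.51 to 0.60). With the mean of logs, where the T-type cell without a read weighs more, these ratios were 0.62 and -0.23. S-type over NR gave -1.38 (-1.44 to -1.32), and -0.92 without NR cell 5. M-type over NR gave -1.49 (-1.54 to -1.43), and -1.86 to -1.03 with cells left out. S-type and M-type, neighbours in this order, overlapped over most of their range. The genes most like *Mbd2* over the cells were *Ext1* (rho 0.83), a heparan sulfate polymerase, *Supt6* (0.73) and *Mkrn2* (0.72).

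*Mbd3* (chr10:80392539-80399550, minus strand), a NuRD subunit whose domain binds methylated CpG poorly, was the only member read in every cell. The S-type cells had 232, 346, 99.3, 63.1, 272 and 58.6, the M-type cells 14.4, 47.6, 94.7, 57.6 and 128, and the NR cells 37.0, 186.045, 127, 174.04 and 108. The T-type cells had 213, 1142, 163.6, 733, 259 and 259. The lowest T-type cell, at 163.6, lay below 2 of the NR cells and 3 of the S-type cells, so the ranges overlapped, and T-type cells 2 and 4 were the highest of the 22. T-type over NR gave 1.87 (1.75 to 1.98), with 1.36 to 2.05 when each cell was left out. T-type over S-type gave 1.37 (1.27 to 1.48), and 0.87 without T-type cell 2. That cell, at 1142, had the second smallest size factor. As CPM of pooled reads, which do not use size factors, the ratios were 1.06 and 0.68. S-type over NR was 0.50 and M-type over NR -0.89. Over the 22 cells *Mbd3* went against the size factor (rho -0.49) and with the S phase sum (0.58), and the part of either was not tested. The genes most like it were *Atxn2l* (0.83), *2010003O02Rik* (0.77) and *Ubxn1* (0.77).

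*Mbd1*, also on chromosome 18, encodes a reader that brings histone methylation to methylated CpG. The S-type cells had 2.66, 167, 101, 463, 479 and 172.9, and the T-type cells 15.5, 0, 1724, 1222, 264 and 24.3. The M-type cells had 619, 58.8, 415, 613 and 87.3, and the NR cells 375, 562, 97.1, 196 and 4.64. The T-type level of 542 rested on cells 3 and 4, and the T-type median of 144 was below those of S-type at 169.9, NR at 196 and M-type at 415. T-type over S-type was 1.23 and T-type over NR 1.13, but 0.40 and 0.31 without T-type cell 3 and -0.24 and -0.44 with medians over cells. The levels of 231 in S-type, 247 in NR and 359 in M-type lay within the spread of the cells. Its nearest genes by rank were *Nav1*, *Rars* and *Setd5* (all 0.72).

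*Mbd5* (chr2:48949508-49325405, plus strand) encodes a protein that joins the PR-DUB histone deubiquitinase complex, lacks affinity for methylated CpG and causes a neurodevelopmental disorder when 1 copy is lost in humans. The authors had named *Mbd5*, like *Mbd4* and *Asxl2* described below, among chromatin genes that differ between S-type and T-type in these data. In T-type, 2 reads were found in cell 6 and none in the other 5 cells. The S-type cells had 832, 108, 65.2, 102, 0.784 and 43.0, the M-type cells 848, 0, 278, 116 and 60.1, and the NR cells 34, 60.1, 159, 0 and 76.0. Of the 16 cells outside T-type, 13 were above 30 and 3 were at or below 0.784, a value that S-type cell 5 owed to 1 read. The ranges therefore overlapped, and *Mbd5* is not among the genes whose cells separate. The T-type level of 0.213 is below the limit of 0.622 that 3 reads over the type would give. T-type over S-type gave -9.81 (95% interval -12.86 to -7.96) and T-type over NR -8.27 (-11.32 to -6.41). With the T-type level raised to that limit the ratios were -8.27 and -6.725, and since 2 reads cannot be told from none, the size of either ratio is uncertain. With each cell left out the ratios lay between -10.07 and -7.70 and between -8.59 and -6.16. S-type over NR was 1.54 and M-type over NR 1.98, but -0.04 without S-type cell 1 and 0.78 without M-type cell 1, which held 72.2% and 65.2% of the sums of their types. The gene shares 136 exonic bases with *Orc4* on the opposite strand, and it is not stated whether reads were counted by strand. *Orc4* had 62836 reads over the 22 cells.

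**Figure D4:**
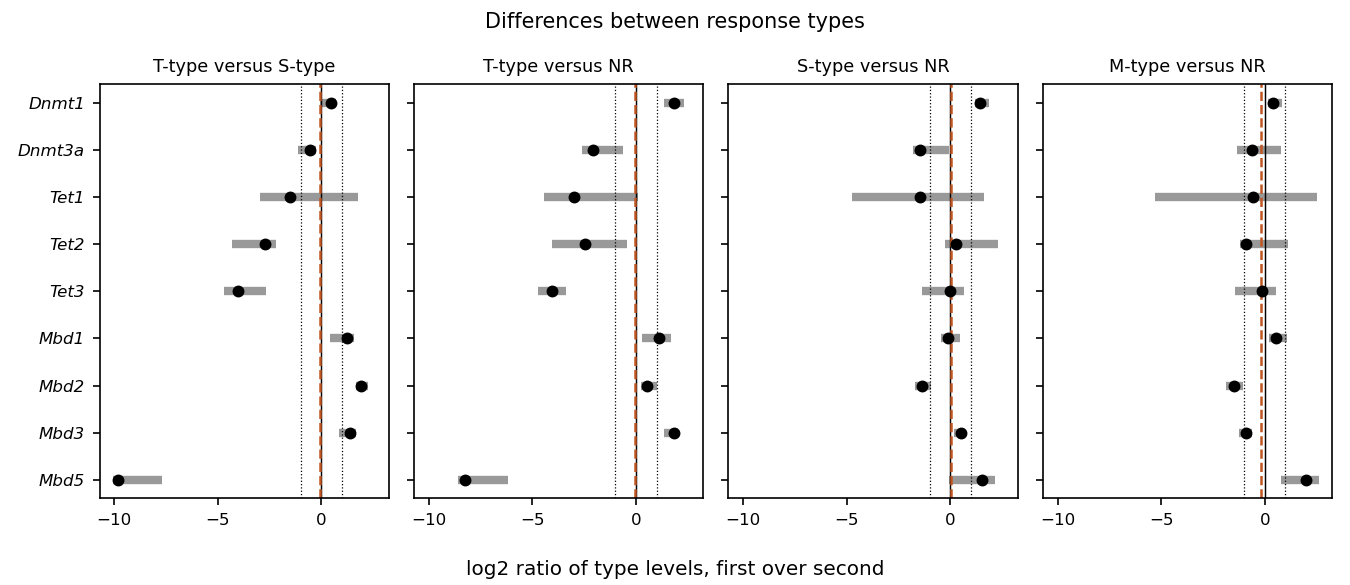
Log2 ratio of the type levels of each gene (points) in the 4 comparisons, with grey bars for the range when each cell is left out in turn, dotted lines at 2-fold and a dashed line at the median of all tested genes. *Tet3* and *Mbd5* lie below the lower dotted line over their whole bars in both T-type comparisons, and the bars of *Tet1* cross 0 in all 4.

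The members were set against all tested genes in each comparison. The 4 comparisons share cells, since 3 of them use the NR cells and 2 the T-type cells, so they are not independent. In T-type versus S-type 7 of 9 members were past 2-fold (3 higher and 4 lower), where 58.2% of the tested genes were. Only 1 was past 2-fold as higher with pooled CPM, mean CPM, medians over cells or the mean of logs. In T-type versus NR it was 8 of 9 (3 higher and 5 lower), against 61% of the tested genes. In S-type versus NR it was 5 of 9, against 47.5%, and in M-type versus NR 2 of 9, against 47.9%. A stricter rule asked that a ratio stay past 2-fold, in its direction, with each cell left out in turn. By that rule 4 members were called in T-type versus S-type (*Tet2*, *Tet3* and *Mbd5* lower, *Mbd2* higher), against 25.7% of the tested genes, of which 842 were higher and 2424 lower. In T-type versus NR 4 were called (*Tet3* and *Mbd5* lower, *Dnmt1* and *Mbd3* higher), against 26.1%. In S-type versus NR only *Dnmt1* was called, as higher, against 19.3%, and in M-type versus NR only *Mbd2*, as lower, against 18.9%. The third rule asked that the cells of the 2 types not overlap, and no member met it in any comparison. It was met by 0.848%, 1.06%, 0.433% and 0.649% of the 11551 genes with a mean normalized count of 10 or more, in the order just given. With 9 members, none of these shares describes more than these 22 cells. The median log2 ratio of the 9 members was -0.57 in T-type versus S-type, -2.05 in T-type versus NR, -0.01 in S-type versus NR and -0.57 in M-type versus NR, beside -0.07, -0.05, 0.03 and -0.20 over all tested genes. Each is the ratio of 1 gene among 9 that went both ways, and it moved with single cells. The -2.05 is the ratio of *Dnmt3a*, and the median was -0.64 without NR cell 5, -0.40 without NR cell 1 and 0.10 without NR cell 3. In T-type versus S-type the median ran from -1.13 to 0.25 with each cell left out, the latter without S-type cell 4, in S-type versus NR from -0.23 to 0.46, and in M-type versus NR from -0.75 to -0.05.

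The kin of these genes comprise 16 symbols that maintain methylation, set it or read it. UHRF1 recruits DNMT1 to DNA methylated on a single strand, and HELLS is a remodeller that DNMTs need in compact chromatin. *Uhrf1* was higher in S-type than NR (321 and 12.8, log2 ratio 4.64, 2.96 to 7.59 with cells left out), and S-type cell 2, the cell with the highest S phase sum, held 74.1% of the S-type sum. *Hells* was higher in S-type (2383) and T-type (286) than in NR (5.08), with ratios of 8.87 and 5.81, and S-type cell 2 held 94.7% of its S-type sum. Only 2 of 6 T-type cells had a *Hells* read, and T-type cell 5 held 77.0% of the T-type sum. The 42 NR reads lay in 2 of 5 cells, with 95.5% of the NR sum in NR cell 1. *Uhrf2*, the paralogue, was higher in T-type (718) than NR (215), at 1.74. *Usp7*, which protects DNMT1 and UHRF1 from degradation, had levels of 5647 in S-type, 4122 in NR, 3951 in T-type and 3311 in M-type. T-type cell 3 held 79.3% of its T-type sum and NR cell 5 held 67.1% of its NR sum. The *Usp7* medians over cells were 5184 in S-type, 2234 in NR, 2085 in M-type and 935 in T-type. Of the 14 tested kin, 4 were called by the stricter rule in T-type versus S-type (*Zbtb4* and *Zbtb38* higher, *Mbd4* and *Setdb1* lower) and 4 in T-type versus NR (*Uhrf2* and *Hells* higher, *Mbd4* and *Setdb1* lower), shares close to the 25.7% and 26.1% of all tested genes.

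*Mbd4*, the glycosylase that repairs deaminated methylcytosine, resembled *Mbd5* in T-type, with 1 read in 6 cells. Its level was 84.6 in S-type, 80.4 in NR and 8.91 in M-type, and T-type over NR was -9.54 (-14.85 to -7.06), or -7.01 with the T-type level raised to the limit of 3 reads. Every NR cell, from 3.71 to 225, exceeded every T-type cell, and 1.06% of the 11551 genes compared by that rule separated in this way. By level, the Kaiso family of zinc finger readers went different ways. *Zbtb4* was 3027 in T-type and 704 in S-type (2.10), *Zbtb38* 367 and 11.9 (4.94), and *Zbtb33* 1383 and 1362 (0.02). The medians over cells were 1378 and 756 for *Zbtb4*, but 5.93 and 9.02 for *Zbtb38* and 308 and 601 for *Zbtb33*. T-type cell 5 held 66.4% of the *Zbtb38* sum of its type. For *Zbtb33*, T-type cell 4 held 68.0% and S-type cell 2 held 63.3%. *Setdb1*, a histone methyltransferase with a methyl-CpG binding domain, was lower in T-type at 233 than in S-type at 751 and NR at 672. In M-type, *Mbd4*, *Mbd6* (11.05 against 30.8) and *Baz2b* (210.0 against 654) were called as lower than NR, and *Hells* and *Setdb2* (136 against 27.1) as higher. These calls came from 14 tested kin, and 18.9% of all tested genes met the stricter rule in that comparison. *Setdb2* was read in only 2 of 5 M-type cells, with 66.2% of the M-type sum in cell 3, and in 3 of 5 NR cells. Its medians over cells, 0 in M-type and 7.78 in NR, went the other way. *Baz2a* was 309 in S-type, 185.9 in T-type, 136 in NR and 59.6 in M-type.

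The readers work within larger complexes. MBD2 and MBD3 sit in NuRD, of which 12 genes were tested. In T-type 4 of them were past 2-fold above S-type and 2 below, with *Mta3* and *Gatad2b* called as lower by the stricter rule and none as higher, where 58.2% and 25.7% of all tested genes met these rules. Its most read genes, the histone chaperones *Rbbp7* and *Rbbp4*, were at 26833 and 5280.0 in T-type, 15639 and 2027 in S-type, and 10522 and 1455 in NR, but T-type cell 1 held 50.2% and 69.3% of the T-type sums. Without it T-type over S-type was 0.04 for *Rbbp7* and -0.06 for *Rbbp4*. MBD5 binds PR-DUB, of which 6 of 7 genes were tested. *Asxl2*, its subunit that activates the deubiquitinase, was 30.0 in T-type against 434 in S-type and 833 in NR, and every NR cell, from 341 to 1391, exceeded every T-type cell, from 0 to 155.1. Of the 11551 genes compared by that rule, 1.06% separated T-type from NR. *Asxl1* was 6419.6 in T-type and 967 in NR, but without a single T-type cell the log2 ratio turned from 2.73 to -1.92. *Foxk2* was 403 in T-type and 230.2 in NR.

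The TET enzymes need 2-oxoglutarate and their products are cut out by base excision repair. Of 15 genes of this list, 4 were called by the stricter rule as lower in T-type than S-type, the glycosylases *Smug1* and *Ung* and the ligase *Lig3* with its scaffold *Xrcc1*. *Ung* is also among the S phase genes counted above. *Idh2*, which makes 2-oxoglutarate in mitochondria, was called as higher, and the rule was met by 25.7% of all tested genes. Of 2 other repair genes, named here after their values were seen, *Apex1*, the abasic site endonuclease, gave 0.77, and *Polb*, the repair polymerase, gave 1.72, but -1.45 without T-type cell 3. The glycosylase *Tdg*, also named after its values were seen, had only 26 reads, spread over 8 cells. No type held more than the 11 of NR, so *Tdg* was close to unread throughout. The most read genes, *Idh1* and *Ogt*, a TET partner, were past 2-fold in neither direction under the stricter rule in any comparison. The median log2 ratio of the list was 0.46 in T-type versus S-type and 0.34 in T-type versus NR.

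S-adenosylmethionine, the methyl donor of the DNMTs, comes from the one-carbon cycle, of which 12 genes were tested. The list was above NR in S-type (9 of 12 genes, 7 past 2-fold where 47.5% of all tested genes were, median 1.13), T-type (8 of 12, median 0.77) and M-type (9 of 12, median 0.70). The medians over all tested genes were 0.03, -0.05 and -0.20. *Mat2a*, which makes S-adenosylmethionine, was 2512 in NR, 3827 in M-type, 5733 in S-type and 4087 in T-type. *Ahcyl1* was 4797 in T-type and 2331 to 2683 in the other types. *Shmt2*, the mitochondrial serine hydroxymethyltransferase, separated S-type from NR, with 4.45 to 181.98 in S-type and 0.598 to 3.04 in NR. *Mtr*, which regenerates methionine with a folate methyl group, was called as lower in T-type in both of its comparisons. Among the S phase genes, the helicase subunit *Mcm4* (1997 against 29.4) and *Tipin* (1202 against 247) separated S-type from NR, and the most read were *Pcna* (11101 against 2961) and *Usp1* (4901 against 1288). Beside *Shmt2*, *Mcm4* and *Tipin*, 0.433% of the 11551 genes compared by that rule separated S-type from NR.

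**Figure D5:**
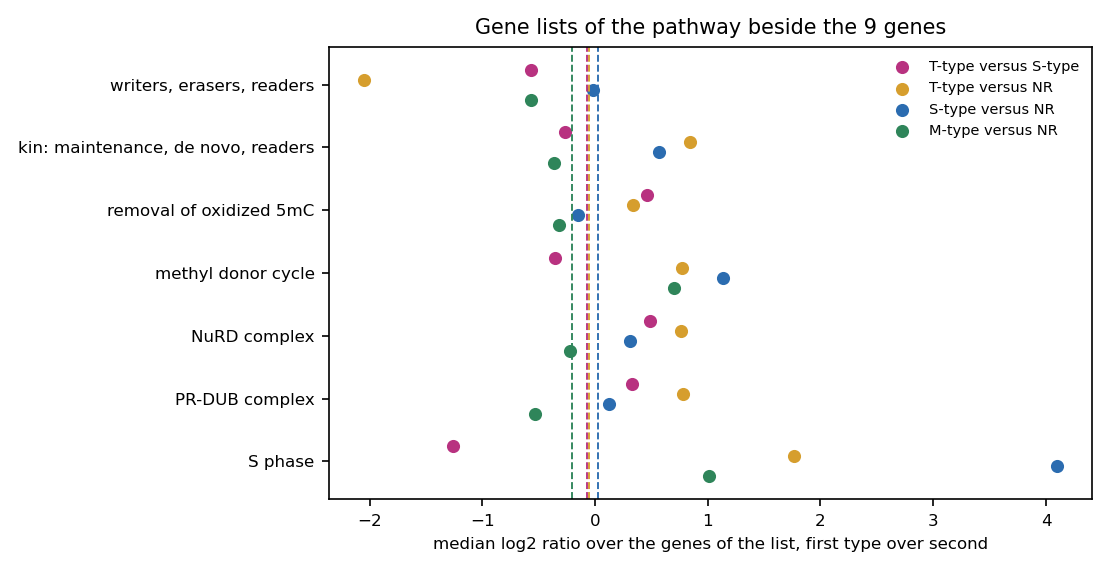
Median log2 ratio over the tested genes of each list (rows) in the 4 comparisons (colours), with dashed lines at the median of all tested genes. The 9 writers, erasers and readers lie at -2.05 in T-type versus NR, a median that ran from -2.35 to 0.10 when each cell was left out, and the S phase genes highest at 4.10 in S-type versus NR.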

How the data were processed

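The authors amplified the RNA of each picked cell in 2 rounds of antisense RNA amplification, prepared TruSeq libraries of the stranded kind and ran them on a NextSeq instrument. They trimmed the reads, aligned them with STAR to GRCm38 and counted exonic reads per gene with VERSE (the submitters' processing notes list STAR and HTSeq), and they deposited raw counts in 1 table with a column for each of the 22 cells. Versions and the use of strand in counting are not given in the sources used here. Counts carry no molecular identifiers, and totals ran from 2937786 to 22131076 reads per cell.

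From these counts, size factors were medians of ratios, taken from the 3670 genes read in all 22 cells, and a type level was the mean normalized count over its cells, computed with Python 3.11.15, NumPy 2.4.6, pandas 2.3.3 and SciPy 1.17.1. A level of 0 was replaced by 3 reads over the summed size factors of the type. Only genes read in at least 5 cells were compared. Cells are not replicates of a response type, and the labels name no animal or culture, so no test was run and intervals cover counting error only. Of the 4 comparisons, 3 set a responding type against NR and 1 set T-type against S-type. Alternatives were pooled and mean CPM, TMM factors (edgeR 4.0.16, R 4.3.3), thinning, medians, a mean of logs, a pseudocount of 1, other gene filters, a minimum of 5 reads, and leaving out each cell.

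The 9 genes and the gene lists were chosen with earlier results of these data known. Named besides them are the kin, the 2 most read genes of each other list, list genes called by a stricter rule where a count of at most 5 is given, and list genes whose cells separate 2 types at a mean level of at least 10. For genes read in at least 20 cells the 3 with the highest Spearman's rho are named. Some genes that these rules name are not reported here. The steps were tested on simulated data. Figures were drawn with matplotlib 3.10.9. The calcium recordings and collection times were not used here.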

Additional observations from a re-analysis of the deposited data

Results flagged for a closer look

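Within each type, log2(normalized count + 1) of each gene was searched for a cell that stands apart from the others by Dixon's ratio, the gap to the nearest cell divided by the range of the type. Of 36 groups, 7 held such a cell. The cutoff flags about 1 in 20 groups only if values are normally distributed, and cells without a read depart from that. The number of flagged groups therefore cannot be compared with chance. S-type cell 1 was apart in 3 of them, as the lowest for *Dnmt3a* (ratio 0.759, no read), *Tet2* (0.693, at 4.44 normalized counts) and *Mbd1* (0.682, at 2.66). M-type cell 1 was the lowest for *Tet2* (0.736, at 1.25), and NR cell 4 was the lowest for *Tet3* (0.768, no read). T-type cell 2 was the lowest for *Mbd2* (0.842, no read). T-type cell 6 was the highest for *Mbd5* with a ratio of 1, since it held the 2 reads of that type.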

How the results depend on the processing

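No paired analysis was possible because the results come from no test and replicate numbers only name the cells. Of 36 member ratios, 22 were past 2-fold, and 7 of these stayed past 2-fold in their direction under every alternative: *Tet2* in T-type versus S-type, *Tet3* and *Mbd5* in both T-type comparisons, *Mbd3* in T-type versus NR and *Dnmt1* in S-type versus NR. The sign turned for 8 of the 22. *Mbd1* in T-type versus S-type became -0.0045 with pooled CPM, -0.24 with medians over cells and -0.56 with the mean of logs, and in T-type versus NR -0.27, -0.44 and -0.59. *Dnmt1* in T-type versus NR became -0.036 with the mean of logs, and *Dnmt3a* in S-type versus NR 0.30 with medians. With each cell left out, *Tet1* ranged from -2.95 to 1.76 in T-type versus S-type, from -4.42 to 0.10 in T-type versus NR and from -4.76 to 1.64 in S-type versus NR, and *Mbd5* in S-type versus NR from -0.041 to 2.17. The cause was not tested. The number of members past 2-fold in S-type versus NR, 5, was 2 with medians and 3 to 6 with cells left out. In M-type versus NR it was 2, and became 6 with medians, 5 with the mean of logs, 2 to 5 with cells left out and 5 without S-type cell 3 and M-type cell 3. In T-type versus S-type it was 6 to 8 and in T-type versus NR 6 to 8 with cells left out. Leaving out these 2 cells, or T-type cells 2 and 3, and raising every level under 3 reads to that limit were chosen after seeing the data. Pooled CPM moved the median of all genes by -0.48 in T-type versus S-type and by -0.47 in T-type versus NR, so that CPM values there are read against that shift. A member with fewer than 3 reads in a type, as *Mbd5* in T-type, cannot be told from absent at this depth.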
